A study of Mus musculus with 8 samples.

Results

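Interferon-stimulated genes are the antiviral and signalling genes that a cell switches on when it senses interferon. The group described here holds 31 genes, chosen as a fixed list of symbols, and all 31 were found among the 37991 genes of the deposited count table. They were measured by RNA sequencing in Flt3- LSK cells of C57BL/6J mouse bone marrow, a sorted fraction that contains blood stem cells and early progenitors. The samples labelled Mut are called Runx1 deficient in the labels, and those labelled WT carried the floxed Runx1 allele (Runx1f/f) and are called wild type. Each of the 2 Mut and 2 WT samples was a sort of 24000 cells, read here by its name as the source of both a library of polyA-selected RNA (mRNA library) and a library of total RNA. Spike-in RNA of the ERCC mix was added to every sample after purification. The sources used here do not give the deleting Cre, the age and sex of the mice, the number of mice behind a sample or the deleted part of the gene. The title concerns ribosome biogenesis and stress resistance in Runx1 deficiency, and no interferon treatment is stated, so the values below are levels in cells without a stated stimulus.

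Type I interferons bind the receptor pair IFNAR1 and IFNAR2, whose kinases JAK1 and TYK2 phosphorylate STAT proteins. STAT2 joins IRF9 in a complex that binds interferon-stimulated response elements (ISREs) in the promoters of target genes. The targets include sensors of viral RNA, nucleases, modifiers of protein fate and feedback inhibitors, and blood stem cells are known to keep some of them on at rest and to respond to interferon by leaving quiescence. RUNX1 is a DNA-binding transcription factor of blood development.

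The 4 mRNA libraries held 35096252 to 37924699 gene counts each, and the 4 total RNA libraries 967694 to 1218437, where ribosomal RNA took 93.3 to 94.5% of all counts. A member had between 10 and 4705 counts in an mRNA library and between 0 and 124 in a total RNA library, so the mRNA libraries carry most of what follows. Runx1 itself had the higher counts in the samples that the labels call Runx1 deficient. Its mRNA-library level was 845 ± 136 CPM in Mut-labelled and 204 ± 5.34 CPM in WT samples (SD, n = 2 each). CPM here are counts brought to a common library size by TMM, a scaling that allows for differences in composition. A count over the whole gene does not check a deletion within it, so the groups are called Mut-labelled and WT and every direction rests on the labels. The progenitor gene Kit was abundant in all 4 mRNA libraries (954 and 1100 CPM in Mut-labelled, 891 and 884 CPM in WT), while Ly6a, which encodes the Sca-1 antigen of the sort and is itself interferon-induced, was at most at 38.6 CPM. The list of 8 LSK genes was not steady between the groups in the mRNA libraries, with 4 positive and 4 negative changes. With TMM edgeR called 1 of the 8 higher and 2 lower, and with ERCC counts as the scale it called none. Flt3, whose protein the sort selected against, was at 57.3 and 87.6 CPM in Mut-labelled and 117 and 155 CPM in WT libraries. The Mut-labelled libraries differed from each other in other cell types: summed over 9 mature neutrophil genes they held 502 and 157 CPM, against 39.7 and 46.3 CPM in WT. The 5 genes of endothelial and stromal cells summed to 142 and 66.5 CPM in Mut-labelled and 114 and 77.5 CPM in WT libraries, with 2 positive and 3 negative changes, and 1 of them, Kdr, was called higher. The 6 B cell genes summed to 124 and 681 CPM in Mut-labelled and 236 and 2652 CPM in WT replicates 1 and 2, of which Jchain, a gene of antibody-secreting cells, made up 86.7 and 651 CPM and 205 and 2606 CPM. Of the 5 B cell genes tested none was called and 3 had a positive change. In such bulk samples, fewer cells of a type and less RNA per cell cannot be told apart.

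A feature that the choice of members did not use is the sequence of their promoters. The ISRE core, searched as GAAA, any 2 bases and GAAA on either strand, occurred in the promoter window (250 bases before to 50 after the annotated start) of 14 of the 24 members that RefSeq's promoter table for GRCm38.p6 holds, or 58.3%. Oas2, Parp14, Rtp4, Mx2, Usp18, Parp9 and Mx1 have no entry there. The same letters occurred in 3.99% of the 27025 gene symbols of that table. A palindromic STAT element, TTCNNNGAA, was present in 5 of the 24 members (20.8%), against 9.55% of all symbols, and overlapped an ISRE core in Bst2 alone. The RUNX core, TGTGGT on either strand, was present in 4 members (16.7%), namely Gbp2, Oasl2, Stat2 and Cmpk2, against 18.9% of all symbols. The 4 promoters below are shown because they belong to members of the largest differences (Oas3, Rsad2, Isg15) and to a member of the same element type whose libraries overlapped (Ifit1). They are the 250 bases before the start on the gene's own strand in GRCm38.p6, with ISRE cores in capitals.
Oas3, chr5:120777660-120777909, minus strand: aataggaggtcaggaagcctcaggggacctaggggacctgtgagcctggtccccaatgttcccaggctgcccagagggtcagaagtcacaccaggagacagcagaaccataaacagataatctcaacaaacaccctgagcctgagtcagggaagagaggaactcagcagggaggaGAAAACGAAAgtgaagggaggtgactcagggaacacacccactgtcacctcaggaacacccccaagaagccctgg
Rsad2, chr12:26456453-26456702, minus strand: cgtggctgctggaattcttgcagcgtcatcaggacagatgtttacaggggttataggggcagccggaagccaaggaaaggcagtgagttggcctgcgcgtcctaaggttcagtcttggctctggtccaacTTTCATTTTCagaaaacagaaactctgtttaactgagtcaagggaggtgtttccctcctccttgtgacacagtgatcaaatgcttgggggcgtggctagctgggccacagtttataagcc
Isg15, chr4:156200819-156201068, minus strand: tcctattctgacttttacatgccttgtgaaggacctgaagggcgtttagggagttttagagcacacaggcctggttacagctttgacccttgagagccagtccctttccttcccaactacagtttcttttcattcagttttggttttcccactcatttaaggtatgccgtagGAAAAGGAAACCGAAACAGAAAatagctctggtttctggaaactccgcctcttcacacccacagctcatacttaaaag
Ifit1, chr19:34640639-34640888, plus strand: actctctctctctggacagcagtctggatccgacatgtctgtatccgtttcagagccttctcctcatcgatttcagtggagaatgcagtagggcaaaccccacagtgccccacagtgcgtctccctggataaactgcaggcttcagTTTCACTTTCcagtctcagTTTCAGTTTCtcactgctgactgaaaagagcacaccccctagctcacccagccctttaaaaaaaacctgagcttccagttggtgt
In Isg15 the 3 overlapping cores form a single run that begins 78 bases before the start. Ifit1 carries 2 separate cores that begin 104 and 85 bases before its start. Oas3 has 1 core, beginning 75 bases before the start, and Rsad2 has 1, beginning 120 bases before. The median log2 fold change in the mRNA libraries was 0.20 for the 14 members with a core and 0.20 for the 10 without. A match is a run of letters and not evidence of binding.

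**Figure D1:**
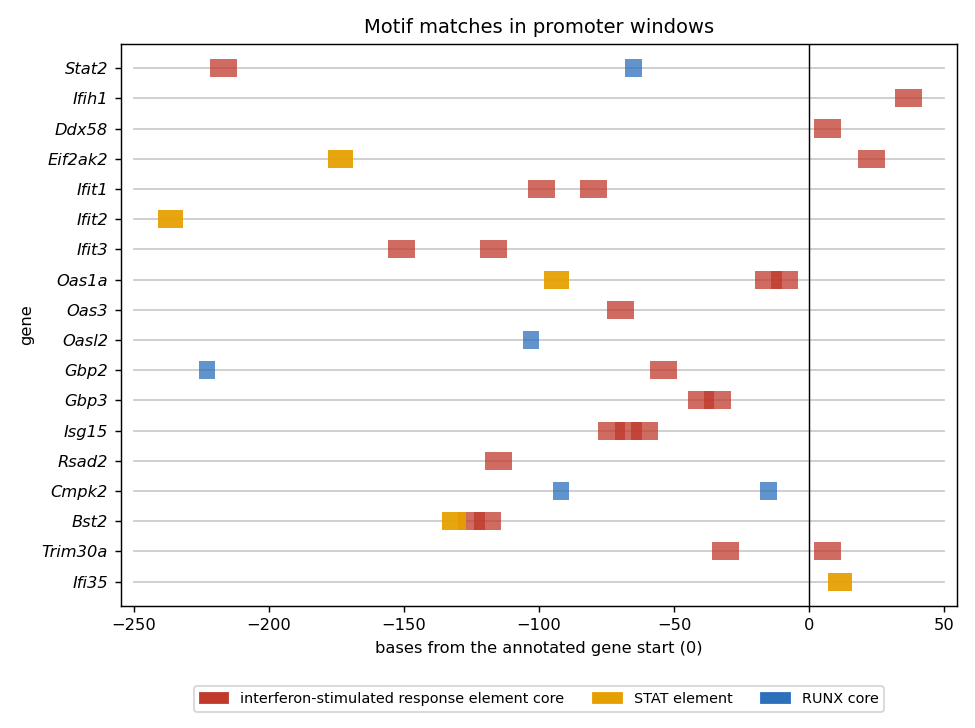
Motif matches in the promoter windows of the 18 members with at least 1 match, on an axis of bases from the annotated gene start. Red boxes are ISRE cores, orange boxes STAT elements and blue boxes RUNX cores, and genes with several annotated starts are drawn on 1 line. Red boxes lie on 14 lines and blue boxes on 4, and most red boxes begin within 156 bases before the start.

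In the mRNA libraries the 31 genes were mostly a little higher in the Mut-labelled samples under TMM scaling, though 23 of 31 were lower under ERCC scaling, and a single one of them, Oas2, passed the test. Oas2 and Oas3, which encode synthases of 2-5A, the activator of RNase L, had the largest differences, at 2.53-fold and 2.37-fold. Rsad2, Isg15, Usp18 and Irf7 followed at 1.69-fold to 1.95-fold without passing. Ifih1, Gbp3 and Cmpk2 had the lowest values, at 0.81-fold to 0.82-fold. Of the 31 genes 23 had a positive log2 fold change and 8 a negative one, with a median of 0.24, against a median of -0.01 over all 17128 genes tested. By edgeR's quasi-likelihood test at an adjusted p under 0.05, 1 of 31 was called, where 3.64% of all genes were. The call was a higher one (1.75% of all genes), and none was called lower (1.89%). Without adjustment, 5 of 31 had a p under 0.05 and were higher (7.27% of all genes) and none were lower (8.38%), and DESeq2 called 3 higher (3.73% of all genes to which it gave an adjusted p) and none lower (4.27%). Both Mut-labelled libraries lay above both WT libraries for 12 members (21.4% of all genes) and below for 2 (23.1%), and the ranges of the other 17 overlapped. The median rested on Mut-labelled replicate 1: without it, it was 0.01, and without replicate 2 it was 0.48. It was also relative to the scaling: with ERCC counts as the scale the median of all genes moved to -0.38 and that of the members to -0.21, so that the members stayed 0.17 above all genes and none was called. ERCC counts were 0.891 and 0.381% of gene counts in Mut-labelled and 0.651 and 0.313% in WT mRNA libraries, so in mRNA this scale differed between replicates more than between genotypes.

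**Figure D2:**
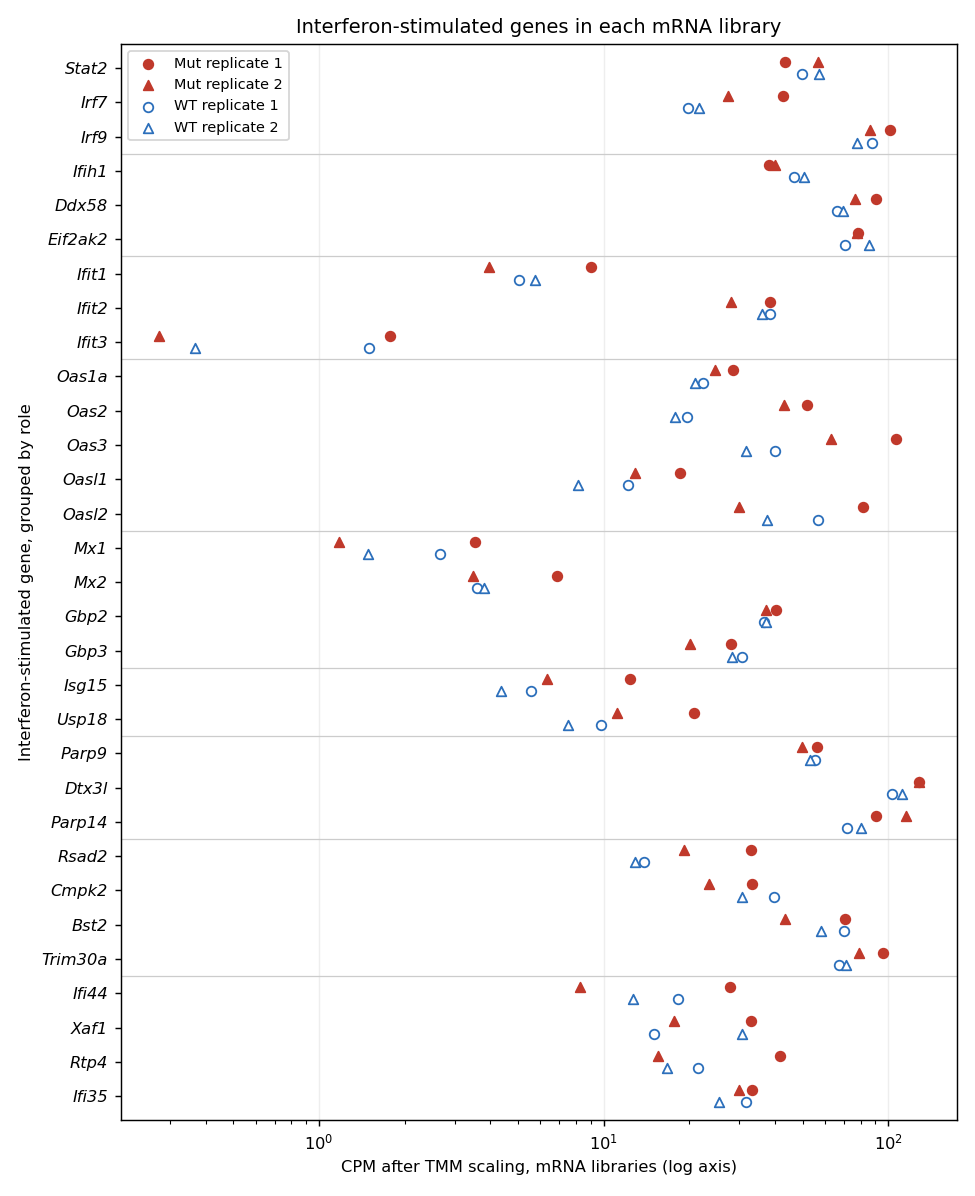
Level of each of the 31 genes in each mRNA library, in CPM after TMM scaling on a log axis, with genes grouped by role. Filled red symbols are Mut-labelled and open blue symbols WT libraries, with circles for replicate 1 and triangles for replicate 2. Both red symbols lie clear of both blue ones to the right for 12 genes, among them Oas2, Oas3, Irf7 and Rsad2, and the red circle lies right of the red triangle for 27 of 31.

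Interferons themselves were hardly detected. Of 20 interferon genes listed, 11 were in the count table, and 8 of those had 0 counts in all 8 libraries. The summed counts of the 11 were 0 and 0 in Mut-labelled mRNA libraries, against 4 and 8 in WT. They came from Ifnb1 (3 counts in WT replicate 2), Ifnk (4 in WT replicate 1) and Ifng (5 in WT replicate 2). At a floor of 3 counts a library, these levels are at or near the limit of detection, and no difference can be read from them.

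The receptor chains and kinases of the pathway were expressed in every library, and 1 of the 9 tested passed in mRNA, where 3.64% of all genes did. Il10rb, the chain shared by the receptors of interferon lambda and interleukin-10, rose to 58.3 and 70.9 CPM in Mut-labelled mRNA libraries, against 30.1 and 26.3 CPM in WT (log2 fold change 1.20, edgeR adjusted p = 0.0250). The total RNA libraries gave a rise of 1.40 on the log2 scale (edgeR adjusted p = 0.00979). The mRNA call was lost without Mut-labelled replicate 2 (1.06, edgeR adjusted p = 0.0518) and the total RNA call with DESeq2 (adjusted p = 0.348). ERCC scaling ended both calls, at 0.91 in mRNA (edgeR adjusted p = 0.999) and 0.32 in total RNA (edgeR adjusted p = 0.634). Its partner for interferon lambda, Ifnlr1, had at most 2.86 CPM in any mRNA library. The type I receptor chain Ifnar2 had 121 and 120 CPM in Mut-labelled and 94.8 and 92.8 CPM in WT libraries, which do not overlap, and did not pass (edgeR adjusted p = 0.201). Ifnar1 was at 125 and 146 CPM in Mut-labelled and 107 and 117 CPM in WT libraries (edgeR adjusted p = 0.464). Jak1, the kinase of every interferon receptor and the most abundant gene of the list, was at 339 and 395 CPM in Mut-labelled and 338 and 339 CPM in WT libraries. All 9 genes had a positive change, with a median of 0.27, but under ERCC scaling 2 of 9 did.

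Among the transcription factors of the group, Irf7 stood out from Stat2 and Irf9. Irf7, which amplifies interferon production and is itself induced by interferon, was at 42.7 and 27.4 CPM in Mut-labelled and 19.8 and 21.7 CPM in WT mRNA libraries. Both Mut-labelled libraries were the higher ones, replicate 1 by more, and the log2 fold change of 0.76 (SE 0.25) did not pass (edgeR adjusted p = 0.212). Irf9, the DNA-binding subunit of the complex with STAT2, was at 101 and 86.2 CPM in Mut-labelled and 87.5 and 77.9 CPM in WT libraries, which overlap (log2 fold change 0.18, edgeR adjusted p = 0.681). Stat2 was at 43.4 and 56.5 CPM in Mut-labelled and 49.99 and 57.3 CPM in WT libraries. Neither Stat2 nor Irf9 passed, which does not show that they were equal between the groups. A test of the method on simulated counts recovered 26.8% of 2-fold changes (log2 of 1) in the mRNA comparison. That rate is over genes drawn at random from all tested, and is not a rate for Stat2 and Irf9.

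Of the 3 sensors of viral RNA, none passed and they did not move together. Ddx58, which encodes RIG-I, was at 90.6 and 76.6 CPM in Mut-labelled and 66.3 and 69.4 CPM in WT libraries (log2 fold change 0.30, edgeR adjusted p = 0.382). Ifih1, which encodes MDA5, was on the other side, at 38.2 and 40.1 CPM in Mut-labelled and 46.7 and 50.6 CPM in WT libraries (log2 fold change -0.31, edgeR adjusted p = 0.384). Neither pair of groups overlapped. Eif2ak2, the kinase PKR that halts translation when it binds double-stranded RNA, was at 78.3 and 77.5 CPM in Mut-labelled mRNA libraries, between the WT values of 70.5 and 85.4 CPM. Eif2ak2 had a log2 fold change of 0.72 in total RNA (edgeR adjusted p = 0.169), and its Mut-labelled libraries lay above the WT ones. The difference between the kinds of library was 0.77 on the log2 scale, with an unadjusted p of 0.0039 and an adjusted p of 0.309 by edgeR's interaction test. It was the 1 member with an unadjusted interaction p under 0.05, and none passed after adjustment, where 0.637% of all genes did. No other tool was run for the interaction.

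Oas2, the 1 member called in the mRNA libraries, belongs to the OAS family, of which 1 of 5 passed there and 2 of 5 in total RNA. The enzymes of the family make 2-5A from ATP when they bind double-stranded RNA, while OASL1 and OASL2 are related proteins. Oas2 (ENSMUSG00000032690) rose to 52.0 and 42.9 CPM in Mut-labelled mRNA libraries, against 19.7 and 17.8 CPM in WT, or 47.5 ± 6.45 against 18.7 ± 1.32 CPM (SD, n = 2 each). The 2 groups lay far apart relative to their spread, and differed by 1.34 on the log2 scale (SE 0.18, edgeR adjusted p = 0.0219). Leaving out any 1 of the 4 mRNA libraries left Oas2 called, at 1.19 to 1.48, and ERCC scaling ended the call (0.94, edgeR adjusted p = 0.999). In total RNA Oas2 had 34 and 37 counts in Mut-labelled and 10 and 8 counts in WT, and rose by 1.91 on the log2 scale (SE 0.40, edgeR adjusted p = 0.00671). DESeq2 did not call it there (adjusted p = 0.237), nor did edgeR with ERCC scaling (0.84, adjusted p = 0.269).

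Oas3 (ENSMUSG00000032661) was at 106 and 63.0 CPM in Mut-labelled and 40.0 and 31.6 CPM in WT mRNA libraries. The groups did not overlap, but the Mut-labelled replicates differed by 1.69-fold and the log2 fold change of 1.24 (SE 0.27) did not pass (edgeR adjusted p = 0.0800). Oas3 passed without WT replicate 1 (1.42, edgeR adjusted p = 0.0334) and without Mut-labelled replicate 2 (1.58, edgeR adjusted p = 0.0144), and with DESeq2 (adjusted p = 6.2e-05). Without Mut-labelled replicate 1 it stood at 0.82 (edgeR adjusted p = 0.105). Oas3 had 82 and 51 total RNA counts in Mut-labelled and 25 and 23 counts in WT, and rose by 1.44 on the log2 scale (SE 0.34, edgeR adjusted p = 0.0152). That call was lost without Mut-labelled replicate 1 (0.85, edgeR adjusted p = 0.272), with DESeq2 (adjusted p = 0.214) and with ERCC scaling (0.48, edgeR adjusted p = 0.473). The remaining family members had smaller differences. Oas1a was at 28.4 and 24.7 CPM in Mut-labelled and 22.4 and 20.9 CPM in WT mRNA libraries (edgeR adjusted p = 0.567). Oasl1, which is known in mouse to restrain translation of Irf7, was at 18.5 and 12.9 CPM in Mut-labelled and 12.2 and 8.16 CPM in WT libraries (log2 fold change 0.62, edgeR adjusted p = 0.445). Oasl2 overlapped, at 81.7 and 29.9 CPM in Mut-labelled and 56.9 and 37.4 CPM in WT libraries. All 5 had positive changes in both kinds of library, with medians of 0.62 in mRNA and 1.01 in total RNA, whereas under ERCC scaling 3 of 5 did in mRNA and 2 of 5 in total RNA.

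Oas2 and Oas3 are neighbours on chromosome 5, in a cluster bounded by Dtx1 and Rph3a, and the genes around them were looked up after these values were seen. Past Oas1e, the next genes of the cluster, Oas1c and Oas1b, were at 13.9 and 14.2 CPM and at 12.5 and 16.7 CPM in Mut-labelled libraries. In WT they were at 10.6 and 8.45 CPM and at 8.54 and 10.6 CPM. Neither passed (log2 fold changes 0.56 and 0.61, edgeR adjusted p = 0.350 and 0.370), nor did the flanking gene Dtx1 (0.44, edgeR adjusted p = 0.849). Oas1d, Oas1e and Rph3a had 0 counts in all 4 mRNA libraries. Counts of Oas1 copies are uncertain, because the copies are near-identical and how reads that fit several places were handled is not stated.

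Isg15 and Usp18 belong to a shared system: ISG15 is a ubiquitin-like protein attached to other proteins, and USP18 removes it and also blocks signalling at IFNAR2. Isg15 was at 12.4 and 6.32 CPM in Mut-labelled and 5.56 and 4.37 CPM in WT mRNA libraries (log2 fold change 0.92, SE 0.40, edgeR adjusted p = 0.358). Usp18 was at 20.7 and 11.1 CPM in Mut-labelled and 9.80 and 7.48 CPM in WT libraries (log2 fold change 0.88, SE 0.36, edgeR adjusted p = 0.325). In both genes the Mut-labelled libraries were the 2 higher ones, with replicate 1 at 1.97-fold and 1.86-fold of replicate 2. The total RNA libraries did not show the same for Usp18, with 13 and 8 counts in Mut-labelled and 9 and 12 counts in WT, a log2 fold change of -0.05. Isg15 had at most 5 counts in a total RNA library and was not tested there.

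Rsad2 and Cmpk2 are adjacent genes on opposite strands that had opposite signs. Rsad2 encodes viperin, an enzyme that makes a chain-terminating nucleotide, and was at 33.1 and 19.1 CPM in Mut-labelled and 13.9 and 12.9 CPM in WT mRNA libraries. The WT libraries were close to each other and both Mut-labelled ones higher, by 0.97 on the log2 scale (SE 0.30, edgeR adjusted p = 0.182). DESeq2 called it (adjusted p = 0.0216), as did edgeR without Mut-labelled replicate 2 (1.31, adjusted p = 0.0487), whereas without replicate 1 it was at 0.52 (edgeR adjusted p = 0.420). Cmpk2, a mitochondrial nucleotide kinase that supplies viperin's substrate, was at 33.3 and 23.4 CPM in Mut-labelled and 39.6 and 30.7 CPM in WT libraries (log2 fold change -0.31, edgeR adjusted p = 0.669). The signs were the same in total RNA, at 1.08 for Rsad2 and -0.36 for Cmpk2, without a call. The tethering factor Bst2, which holds budding virus to the cell, was at 70.4 and 43.5 CPM in Mut-labelled and 69.7 and 58.3 CPM in WT libraries. Trim30a, a mouse regulator of innate signalling, was at 96.1 and 78.7 CPM in Mut-labelled and 67.2 and 71.1 CPM in WT libraries (log2 fold change 0.34, edgeR adjusted p = 0.353). Trim30 copies are near-identical, so its counts are uncertain.

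PARP9 and DTX3L form a complex of an ADP-ribosyltransferase-family protein and a ubiquitin ligase, and Parp14 encodes a related protein from the same locus. Parp14 was at 90.4 and 115 CPM in Mut-labelled and 71.7 and 80.1 CPM in WT mRNA libraries (log2 fold change 0.44, SE 0.16, edgeR adjusted p = 0.264). It was the 1 of these 3 in which Mut-labelled replicate 2 was clearly the higher of its pair. Dtx3l was at 129 and 129 CPM in Mut-labelled and 103 and 112 CPM in WT libraries (log2 fold change 0.26, edgeR adjusted p = 0.410), with the 2 Mut-labelled libraries nearly equal. Parp9 overlapped, at 56.3 and 49.9 CPM in Mut-labelled and 55.4 and 53.2 CPM in WT libraries. Dtx3l and Parp9 overlap at their starts on opposite strands, and since the use of strand is not given, reads of that stretch cannot be told apart. All 3 had positive changes in total RNA, and none did under ERCC scaling, while Parp14 stood at 0.48 (edgeR adjusted p = 0.253).

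The IFIT genes, whose proteins bind foreign RNA ends and block their translation, and the GTPases had no consistent direction. Ifit1 was at 9.003 and 3.97 CPM in Mut-labelled and 5.06 and 5.76 CPM in WT mRNA libraries. Ifit2, at 38.4 and 28.1 CPM in Mut-labelled and 38.4 and 35.9 CPM in WT libraries, had a log2 fold change of -0.16. Ifit3 was the least expressed member per length, at 1.77 and 0.274 CPM in Mut-labelled and 1.502 and 0.366 CPM in WT libraries. In Ifit3 both replicates 1 were high and both replicates 2 low, in either genotype, and reads shared with its near-identical copy Ifit3b make it uncertain. Mx1 and Mx2, dynamin-like GTPases that trap viral particles, overlapped between the groups. Mx1 was at 3.54 and 1.18 CPM in Mut-labelled and 2.66 and 1.49 CPM in WT libraries. Mx2 was at 6.89 and 3.47 CPM in Mut-labelled and 3.58 and 3.79 CPM in WT libraries. C57BL/6 mice are known to carry a defective Mx1, so its RNA stands for no functional protein in this strain. Of the guanylate-binding proteins, which attack the vacuoles of intracellular microbes, Gbp2 overlapped, at 40.4 and 37.3 CPM in Mut-labelled and 36.7 and 37.3 CPM in WT libraries. Gbp3 was at 28.1 and 20.2 CPM in Mut-labelled and 30.6 and 28.3 CPM in WT libraries (log2 fold change -0.29, edgeR adjusted p = 0.663).

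The last 4 members, none of which passed, are interferon-induced genes with less settled roles. Rtp4 was at 41.8 and 15.6 CPM in Mut-labelled and 21.6 and 16.7 CPM in WT mRNA libraries. Replicate 1 held the higher of its Mut-labelled values, and the log2 fold change was 0.58 with that library (SE 0.46, edgeR adjusted p = 0.679) and -0.30 without it. Ifi44 was at 27.8 and 8.29 CPM in Mut-labelled and 18.2 and 12.7 CPM in WT libraries. Xaf1, which encodes a pro-apoptotic partner of XIAP, was at 32.9 and 17.7 CPM in Mut-labelled and 15.1 and 30.6 CPM in WT libraries. Ifi35 was at 33.2 and 30.0 CPM in Mut-labelled and 31.6 and 25.5 CPM in WT libraries. In all 4 genes the groups overlapped.

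Per kilobase of exon, Bst2 was the highest member, at 63.0 CPM per kb in Mut-labelled and 70.9 CPM per kb in WT mRNA libraries. Dtx3l followed at 22.5 CPM per kb in Mut-labelled and 18.8 CPM per kb in WT, and Trim30a at 21.3 and 16.8 CPM per kb. Oas2 and Oas3 were at 10.7 and 11.98 CPM per kb in Mut-labelled and at 4.21 and 5.06 CPM per kb in WT libraries. At the low end Mx1 was at 0.624 CPM per kb in Mut-labelled and 0.549 CPM per kb in WT libraries, and Ifit3 at 0.586 and 0.535 CPM per kb. Lengths are summed exons of GENCODE M21, which may differ from the annotation of the counts.

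Across both kinds of library, the total RNA libraries gave the same sign as the mRNA libraries for 22 of the 26 members tested in both. There 2 of 26 were called, Oas2 and Oas3, where 4.22% of all genes were. Both calls were higher ones (2.54% of all genes), and none was called lower (1.68%). Without adjustment 4 were higher (7.65% of all genes) and none lower (7.13%), and DESeq2 called none in either direction (1.12% of all genes to which it gave an adjusted p were higher and 0.402% lower). The median log2 fold change was 0.17 (all genes -0.00), and it ranged from 0.15 to 0.41 when 1 library was left out. Both Mut-labelled total RNA libraries lay above both WT ones for 13 members (22.5% of all genes) and below for none (21.4%). The 2 kinds were made from the same sorts, so they are not independent samples. The share of all genes with the same sign in both kinds was not computed. The 5 members not tested in total RNA (Ifit1, Ifit3, Mx1, Mx2 and Isg15) had at most 8 counts there. With ERCC scaling the median of all genes in total RNA moved to -1.10 and that of the members to -0.81, and none was called. ERCC counts there were 0.772 and 1.36% of gene counts in Mut-labelled and 0.414 and 0.564% in WT libraries, so both Mut-labelled libraries had the higher share.

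**Figure D3:**
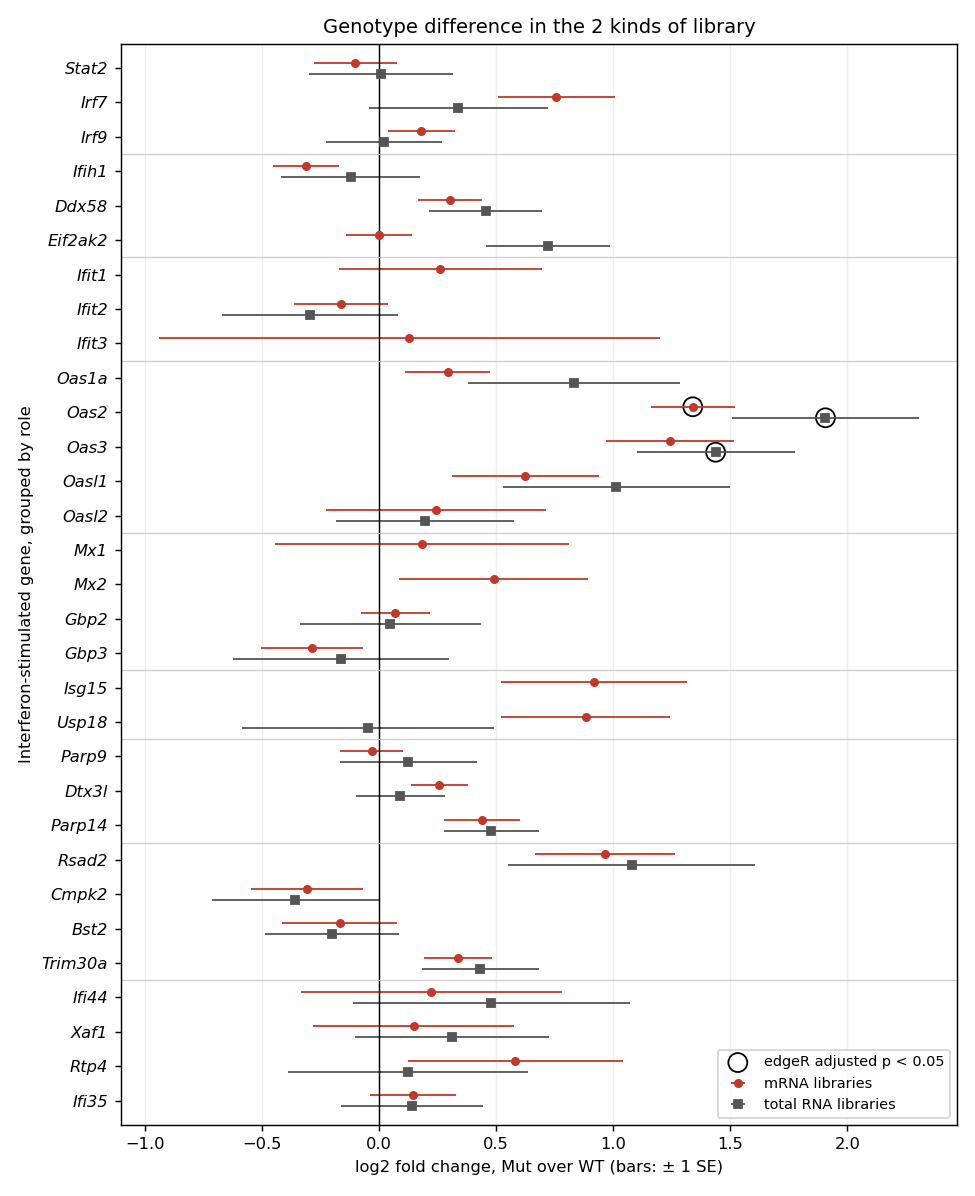
Log2 fold change of Mut-labelled over WT for each of the 31 genes in mRNA (red circles) and total RNA (grey squares) libraries, with bars of 1 SE from edgeR. Open rings mark an adjusted p under 0.05, which Oas2 has in both kinds and Oas3 in total RNA, and 5 genes without a grey square were not tested in total RNA.

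The members varied together within the Mut-labelled group. In the mRNA libraries 27 of 31 were higher in Mut-labelled replicate 1 than in replicate 2 (49.4% of all genes). The median log2 ratio was 0.51, against 0 over all genes. In 14 members replicate 1 was over 1.5-fold higher, where 11.4% of all genes were, and in none was replicate 2. The largest ratios were 6.48 for Ifit3, 3.35 for Ifi44, 3.01 for Mx1, 2.73 for Oasl2 and 2.68 for Rtp4. Stat2, Parp14, Ifih1 and Dtx3l were the 4 members not higher in replicate 1. Between the WT mRNA libraries 19 of 31 were higher in replicate 1 (49.9% of all genes), with a median log2 ratio of 0.11. In 3 it was over 1.5-fold higher (7.76% of all genes). The total RNA libraries of the same sorts showed the same direction: 21 of 26 members were higher in Mut-labelled replicate 1 (49.6% of all genes). The same replicate was higher in both kinds for 25 of 26, and the share of all genes for which this held was not computed. Of the 14 members over 1.5-fold in the mRNA libraries, all 9 that were tested in total RNA were also higher in replicate 1 there. Summed over the 31 genes, the level was 1486 and 1180 CPM in Mut-labelled and 1133 and 1107 CPM in WT mRNA libraries, and 1060 and 910 CPM in Mut-labelled and 779 and 803 CPM in WT total RNA libraries.

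**Figure D4:**
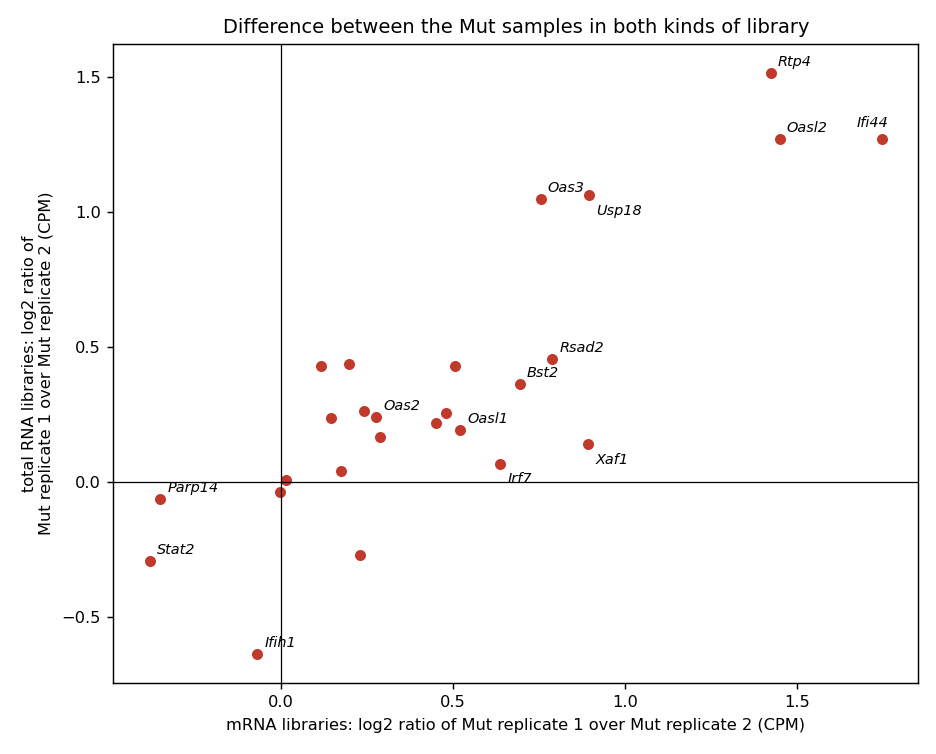
Log2 ratio of Mut-labelled replicate 1 over replicate 2 for the 26 members tested in both kinds, in mRNA libraries (horizontal axis) and total RNA libraries (vertical axis) of the same sorts. For 25 of 26 points both ratios have the same sign, Irf9 being the exception, and Rtp4, Oasl2 and Ifi44 lie farthest to the upper right.

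The summed level of mature neutrophil genes was also higher in Mut-labelled replicate 1 than in replicate 2. All 9 genes of that list had positive changes under TMM and ERCC scaling. With TMM edgeR called 2 of them, DESeq2 called all 9, and with ERCC scaling edgeR called none. In total RNA edgeR called all 5 that were tested with TMM and none with ERCC scaling, and DESeq2 called 1. Their sum was 502 CPM in Mut-labelled replicate 1 and 157 CPM in replicate 2, against 39.7 and 46.3 CPM in WT. In total RNA the sums were 251 and 106 CPM in Mut-labelled and 30.2 and 34.1 CPM in WT libraries, and no gene of the list was at 0 in an mRNA library. The endothelial and stromal sum given above was likewise higher in Mut-labelled replicate 1, and the B cell sum in replicate 2. The 5 erythroid genes summed to 45.6 and 16.9 CPM in Mut-labelled and 98.1 and 57.8 CPM in WT mRNA libraries. Of these 5 genes 4 had a negative and 1 a positive change, and edgeR called 1 lower with TMM. The part of any of these cell types in the members' values was not tested. The summed level of 10 macrophage and monocyte genes was 129 and 72.4 CPM in Mut-labelled and 85.0 and 72.4 CPM in WT mRNA libraries, so replicate 1 was again the higher of the Mut-labelled pair. Of these 10 genes 6 had a negative and 4 a positive change, with a median of -0.72. None was called by edgeR, while 5 were lower and 1 higher at an unadjusted p under 0.05 and DESeq2 called 2 lower and 1 higher. Genes of plasmacytoid dendritic cells, the main makers of type I interferon, were low, the 7 of them summing to 1.51 and 3.91 CPM in Mut-labelled and 4.37 and 8.08 CPM in WT mRNA libraries. Siglech, their defining surface gene, had 15 and 0 counts in Mut-labelled and 51 and 6 counts in WT libraries. Conventional dendritic cell genes summed to 15.8 and 16.5 CPM in Mut-labelled and 16.7 and 20.2 CPM in WT libraries. Single genes of that list differed in both directions. Of the 4 tested, 2 had a positive and 2 a negative log2 change (-1.93 to 3.13). With TMM edgeR called 1 higher and 1 lower, and with ERCC scaling it called 0.

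Beyond the 31 genes, the wider interferon pathway held calls in both directions in the mRNA libraries. Over all genes, edgeR called 1.75% higher and 1.89% lower there. Directions in these lists are under TMM scaling. Every one of their mRNA calls named below was lost under ERCC scaling, but each kept its sign. The log2 fold changes there were -1.07 for Tmem173, -1.77 for Ifitm1, -2.24 for H2-Aa and 1.45 for Cd274. Why the calls were lost was not tested. Among further transcription factors, Stat3 was at 299 and 420 CPM in Mut-labelled and 246 and 287 CPM in WT libraries, and Irf2, a repressor of interferon targets, at 151 and 137 CPM in Mut-labelled and 123 and 109 CPM in WT libraries. Neither passed (edgeR adjusted p = 0.405 and 0.357).

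Of 16 further genes of nucleic acid sensing, 1 was called lower (1.89% of all genes) and none higher (1.75%). At an unadjusted edgeR p under 0.05, 2 were higher (7.27% of all genes) and 2 lower (8.38%). DESeq2 called 2 higher (3.73% of all genes to which it gave an adjusted p) and 2 lower (4.27%). Tmem173, which encodes the DNA-sensing adaptor STING, fell to 41.8 and 42.2 CPM in Mut-labelled mRNA libraries, against 73.3 and 65.7 CPM in WT (log2 fold change -0.73, edgeR adjusted p = 0.0463). That call was lost without each of the 4 libraries in turn, with edgeR adjusted p of 0.0890 to 0.267. In total RNA its change was -0.21 (edgeR adjusted p = 0.814). Trim25, the ligase that activates RIG-I, was at 170 and 170 CPM in Mut-labelled and 149 and 155 CPM in WT libraries (edgeR adjusted p = 0.649). Traf3 was at 78.0 and 93.0 CPM in Mut-labelled and 91.9 and 100.04 CPM in WT libraries (edgeR adjusted p = 0.707).

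None of 12 negative regulators outside the group was called in the mRNA libraries, where 3.64% of all genes were. At an unadjusted edgeR p under 0.05, 4 were higher (7.27% of all genes) and none lower (8.38%). DESeq2 called 2 higher (3.73% of all genes to which it gave an adjusted p) and none lower (4.27%). Socs3, an inhibitor of JAK kinases that also answers to other cytokines, was at 107 and 218 CPM in Mut-labelled and 35.2 and 54.1 CPM in WT libraries (log2 fold change 1.86, edgeR adjusted p = 0.0666), and passed without Mut-labelled replicate 1 (edgeR adjusted p = 0.00308) and without either WT library (0.0455 and 0.00150). In total RNA it rose by 1.91 on the log2 scale (edgeR adjusted p = 0.00170), a call that was lost with ERCC scaling (0.74, edgeR adjusted p = 0.270). Unlike most members, Socs3 was the higher in replicate 2 of each group. Socs1, the main inhibitor of interferon signalling in the SOCS family, was at 30.5 and 24.1 CPM in Mut-labelled and 13.3 and 13.002 CPM in WT mRNA libraries (log2 fold change 1.06, edgeR adjusted p = 0.0622). Socs1 and Socs3 were singled out after their values were seen. The most abundant genes of the list, Irf2bp2 and Ptpn6, were at 391.7 and 480 CPM and at 237 and 244 CPM in Mut-labelled libraries, against 325 and 308 CPM and 229 and 221 CPM in WT.

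Of 71 other interferon-induced genes tested in the mRNA libraries, 1 was called lower (1.89% of all genes) and none higher (1.75%), with a median change of 0.11. At an unadjusted edgeR p under 0.05, 10 were higher (7.27% of all genes) and 7 lower (8.38%). DESeq2 called 7 higher (3.73% of all genes to which it gave an adjusted p) and 5 lower (4.27%). Ifitm1, whose membrane protein blocks virus entry, fell to 51.9 and 41.9 CPM in Mut-labelled libraries, against 121 and 117 CPM in WT (log2 fold change -1.34, edgeR adjusted p = 0.0130). It also fell in total RNA (-1.63, edgeR adjusted p = 0.000383), there also with ERCC scaling (-2.71, edgeR adjusted p = 0.00253). With TMM scaling the member Oas2 and this gene, both interferon-induced, were called in opposite directions in both kinds of library. Ly6e, the most abundant gene of the list, was at 777 and 543 CPM in Mut-labelled and 668 and 595 CPM in WT mRNA libraries. Lgals9 was at 507 and 430 CPM in Mut-labelled and 389 and 308 CPM in WT libraries (edgeR adjusted p = 0.344). Slfn1, singled out after its values were seen, had 154 and 30 counts in Mut-labelled and 0 and 0 counts in WT mRNA libraries. Against a floor of 3 counts per WT library it was at least 33.1-fold higher, without passing (edgeR adjusted p = 0.0658). The bound was 10.4-fold without Mut-labelled replicate 1 and 55.9-fold without replicate 2.

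Among 20 genes of antigen processing that interferon gamma induces, 1 was called higher (1.75% of all genes) and 1 lower (1.89%), and the median change was -0.03. Cd274, which encodes the checkpoint ligand PD-L1, rose to 112 and 164 CPM in Mut-labelled mRNA libraries, against 33.9 and 45.6 CPM in WT (log2 fold change 1.79, edgeR adjusted p = 0.0223), and rose by 1.70 in total RNA (edgeR adjusted p = 0.000258). The total RNA call was lost with ERCC scaling (0.53, edgeR adjusted p = 0.418). H2-Aa, a class II chain of antigen-presenting cells, fell to 3.34 and 4.92 CPM in Mut-labelled libraries, against 14.3 and 17.1 CPM in WT (log2 fold change -1.93, edgeR adjusted p = 0.0334). The class I genes were nearly level: H2-K1 was at 1808 and 1457 CPM in Mut-labelled and 1893 and 1683 CPM in WT libraries, and B2m at 1285 and 865 CPM in Mut-labelled and 1207 and 1026 CPM in WT libraries.

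**Figure D5:**
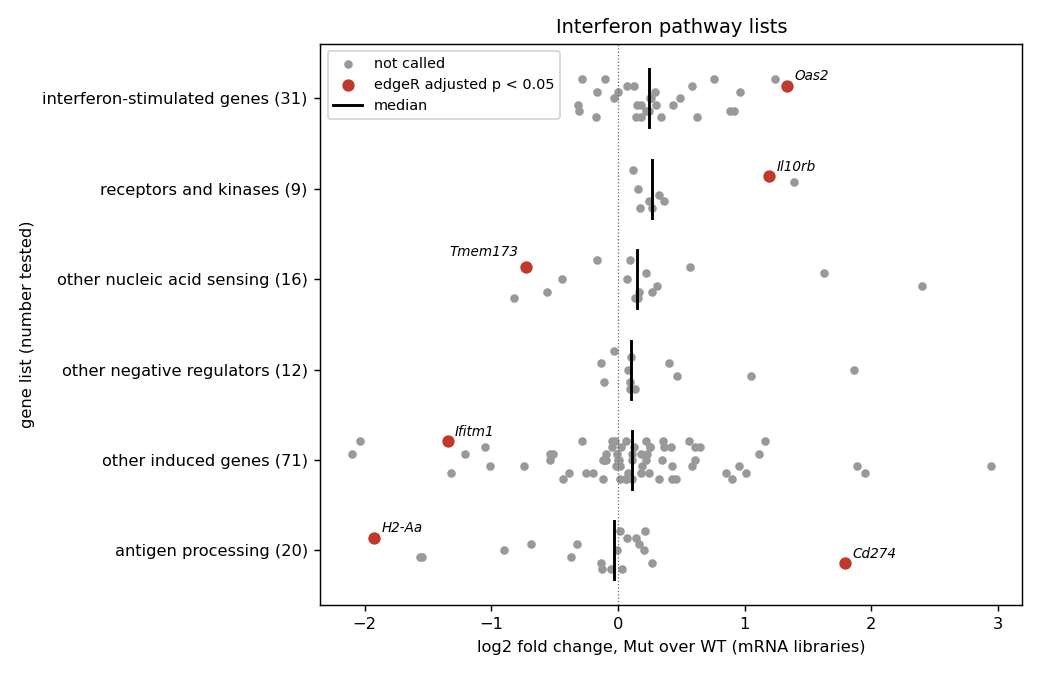
Log2 fold change of Mut-labelled over WT in mRNA libraries for the 31 genes and 5 further lists of the pathway, with 1 point per gene tested and a bar at each list's median. Large red points are the 6 genes with an edgeR adjusted p under 0.05, 3 to the right of 0 and 3 to the left, and Slfn1, with 0 counts in WT, counts towards its list's median but is not drawn.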

How the data were processed

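RNA of sorted Flt3- LSK cells was sequenced in 8 libraries. The deposited table holds raw counts per gene, which the authors had not normalised. Per the submitters' processing notes, TopHat, featureCounts and edgeR were used with genome build mm9. The sources used here do not give versions, annotation, strand use or the handling of multiply mapped reads. The table had 38086 entries: 37991 genes, 92 ERCC transcripts and 3 ribosomal RNA species, and the last 2 kinds stayed out of library sizes and tests. Symbols came from GENCODE M21 and matched 32919 identifiers.

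The genotypes were compared separately in mRNA and total RNA with edgeR 4.0.16 (R 4.3.3), using TMM scaling, its filter on low counts (17128 and 10546 genes kept in mRNA and total RNA), the two-sided quasi-likelihood test and Benjamini-Hochberg adjustment over all genes. Calls needed an adjusted p under 0.05. The dependence on the kind of library was an interaction with the sorted sample as a block. Alternatives were DESeq2 1.42.0, DESeq2 size factors, ERCC scaling, no filter, a replicate block, a fit over all 8 libraries and leaving out each library. The fit was tested on simulated counts, where it recovered 67.7% of 4-fold changes (log2 of 2) in mRNA and 90.9% in total RNA. In mRNA it called 10 unchanged genes, beside 26 changed 2-fold and 65 changed 4-fold. In total RNA it called 6 unchanged genes, beside 49 and 90. Common biological variation, as a coefficient, was 0.302 in mRNA and 0.141 in total RNA libraries.

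The members and all lists were chosen with earlier results of these data known. The naming rule took members with an adjusted p under 0.05 in any comparison or an unadjusted p under 0.05 in mRNA, the 8 with the largest changes and the 5 most abundant, and of each list the called genes and the 2 most abundant. The other members were given with their values as well. Ifnar1, Ifnar2, Ifnlr1, Socs1, Socs3, Slfn1, Kit, Ly6a, Flt3, Jchain and Siglech fall outside it and were named after their values were seen. Some genes of these lists are not reported here. Replicates of a group differed far beyond counting noise (chi-square over its degrees of freedom was 65.4 in Mut-labelled and 70.04 in WT mRNA libraries, and 2.79 in Mut-labelled and 3.33 in WT total RNA libraries). Nothing says that they came from separate mice, so p-values measure only how far these samples vary, possibly for technical reasons. Floors cover counting error only. The SEs come from edgeR's quasi-likelihood test and include its estimate of the variation between replicates.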

Additional observations from a re-analysis of the deposited data

How the results depend on the processing

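Limits: each group had 2 sorts. All directions rest on labels that the whole-gene Runx1 counts, higher in the Mut-labelled samples, cannot check. The total RNA libraries had 0 to 124 counts per member. Oas2 was called higher in mRNA libraries by every alternative but ERCC scaling.

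Members called higher in mRNA libraries numbered 1, against 0 with ERCC scaling, 3 with DESeq2 and 2 in the fit over all 8 libraries. With the replicate block they numbered 9 of 31 (Rsad2, Parp14, Dtx3l, Ddx58, Oas2, Oas3, Usp18, Trim30a and Irf7), where 1331 of all 17128 genes were called higher. In total RNA they numbered 2, against 0 with ERCC scaling, 0 with DESeq2 and 1 in the fit over all 8 libraries. Genes called higher and lower in mRNA libraries (300 and 324) numbered 16 and 154 with ERCC scaling, 699 and 801 with DESeq2 and 1331 and 1539 with the replicate block. In the fit over all 8 libraries they numbered 441 and 473. In total RNA (268 and 177) they numbered 13 and 360 with ERCC scaling, 125 and 45 with DESeq2 and 493 and 377 with the replicate block. The lower calls there were 369 without a filter and 90 in the fit over all 8 libraries, which called 273 genes there in either direction. The interaction gave 111 genes, and 0 without the sample block. With ERCC scaling the members' median was -0.21 in mRNA and -0.81 in total RNA. Leaving out 1 library gave medians of 0.01 to 0.48 in mRNA and 0.15 to 0.41 in total RNA. The cause of these differences was not tested.

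The replicate numbers are shared by both groups, and with 2 pairs they were not taken as a pairing. Deviations of same-numbered libraries correlated across genes (r = 0.41 over 17128 genes in mRNA and 0.23 over 10546 in total RNA), and across the members at 0.53 and 0.28. Genes are not independent replicates.

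Changes of sign concerned members without a call in the comparisons of the report, although of those in mRNA Ddx58, Dtx3l and Trim30a were called there with the replicate block. With ERCC scaling in mRNA libraries the log2 fold changes were -0.21 for Irf9, -0.13 for Ddx58, -0.38 for Ifit1, -0.38 for Ifit3, -0.10 for Oas1a, -0.31 for Oasl2, -0.35 for Mx1, -0.094 for Mx2, -0.33 for Gbp2, -0.14 for Dtx3l, -0.11 for Trim30a, -0.40 for Ifi44, -0.57 for Xaf1, -0.012 for Rtp4 and -0.20 for Ifi35. In total RNA 20 of 26 members had a positive change, and 2 of 26 with ERCC scaling. Among the 12 members that the naming rule took and that were tested there, the values that changed sign were -0.79 for Irf7, -1.14 for Irf9, -0.35 for Eif2ak2, -0.069 for Oasl1, -1.01 for Dtx3l, -0.61 for Parp14, -0.0043 for Rsad2, -0.66 for Trim30a and -0.84 for Rtp4. Eif2ak2, at -0.00 in mRNA, was 0.0020 with DESeq2 size factors, 0.00082 without a filter, 0.0014 with DESeq2, 0.0048 with the replicate block and 0.00033 in one fit over all 8 libraries. Ifit3 was -0.051 with the replicate block, and Usp18 in total RNA 0.0094 in one fit over all 8 libraries. When 1 library was left out, mRNA values ranged from -0.37 to 0.76 for Xaf1, from -0.30 to 0.074 for Stat2, from -0.14 to 0.16 for Eif2ak2, from -1.76 to 1.47 for Ifit3, from -0.66 to 0.80 for Oasl2, from -0.82 to 0.78 for Mx1, from -0.45 to 0.74 for Ifit1, from -0.087 to 0.91 for Mx2, from -0.90 to 0.86 for Ifi44, from -0.30 to 1.13 for Rtp4, from -0.41 to 0.053 for Ifit2, from -0.12 to 0.059 for Parp9 and from -0.56 to 0.14 for Bst2. In total RNA they ranged from -0.15 to 0.23 for Irf9, from -0.62 to 0.44 for Usp18 and from -0.75 to 0.75 for Rtp4.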
